A study of Mus musculus with 12 samples.

Results

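The genes that changed in the same direction in both Etv4 knockout clones of the mouse mammary carcinoma line 4T1 grown in collagen I gels were described here. Polyadenylated RNA of 6 of the study's 12 libraries was compared, with 2 libraries each of knockout clone 1, knockout clone 2 and control cells in the gels (3D). A gene was kept as shared when each clone differed from the control libraries at an adjusted p under 0.05 in edgeR's quasi-likelihood test, with Benjamini-Hochberg adjustment, and both differences had the same sign. Of 13763 genes tested, 988 met this rule, 381 of them higher and 607 lower in both clones. The 2 comparisons share their control libraries, so a deviation of those libraries enters both.

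The clone 1 and clone 2 libraries came from single 4T1 clones selected after nucleofection with Cas9 and sgRNAs against Etv4, and the control libraries came from pools of clones given control sgRNAs. All 3 were suspended in collagen I and released from the gels with collagenase before RNA was taken. The gels held collagen I at 2.4 mg/ml or, in others, 1.2 mg/ml, per the labels' protocols, which give no value for each library. A single clone differs from a pool in more than the targeted gene, and this design cannot tell those differences apart from effects of Etv4. Separate cultures are not stated for the libraries of a group, and the p-values therefore rest on the spread between libraries, which may be technical. In bulk RNA, fewer cells of a type and less RNA per cell cannot be told apart.

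The Etv4 protein belongs to the PEA3 subfamily of ETS transcription factors, which bind DNA at a GGAA core and act downstream of receptor tyrosine kinases and ERK. PEA3 factors are known for roles in branching of the mammary gland and in invasion of mammary tumours. Fibrillar collagen I is the main matrix around such tumours, and cells in it attach, spread and remodel the matrix in ways that plastic does not allow.

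The 3D libraries held 26.5 to 33.2 M counts. Etv4 itself, reported as CPM, counts scaled to library size, was at 69.9 and 69.1 CPM in clone 1 and 86.6 and 91.5 CPM in clone 2, against 94.7 and 99.4 CPM in control. It was called lower in clone 1 and not in clone 2 (larger adjusted p = 0.116), so it was not among the shared genes, and neither were Etv1 (0.804) and Etv5 (0.293). Edits that shift the reading frame need not lower a transcript's count, so these levels check the labels little. The 10 mammary carcinoma markers, among them the keratins Krt8 and Krt18, summed to 3292 to 3324 CPM in clone 1, 3536 to 3571 CPM in clone 2 and 3682 to 3800 CPM in control. Leukocyte markers summed to 7.70 to 11.1 CPM, fibroblast markers to 20.4 to 24.9 CPM and endothelial markers to 3.53 to 5.86 CPM over the 6 libraries. The defining genes Itgam, Lyz2, Tyrobp, Pdgfrb, Lum, Col3a1 and Emcn had no count in any of them. Pdgfra, at 19.7 to 23.2 CPM, made up most of the fibroblast sum, and Cd68, at 6.99 to 10.3 CPM, most of the leukocyte sum.

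Clone 1 was higher than control in 3034 genes (22%) and lower in 3167 (23%), and clone 2 was higher in 1631 (11.9%) and lower in 2392 (17.4%). The shared genes made up 2.77% of the genes tested in the higher direction and 4.41% in the lower direction. A further 1359 genes were called in both clones in opposite directions. Most shared changes were small: 12 genes were at least 2-fold higher and 97 at least 2-fold lower in both clones, and 44 and 150 changed by at least 1.5-fold in both. The median log2 fold change of the shared higher genes was 0.37 in clone 1 and 0.30 in clone 2, and that of the shared lower genes was -0.44 and -0.46. Over all genes tested these medians were 0.00 in both clones. Without the predicted genes Gm26917 and Gm42418 the split became 489 higher and 516 lower, since their removal shifts the scaling. The clones themselves differed at an adjusted p under 0.05 in 147 of the 381 higher genes (38.6%) and in 280 of the 607 lower genes (46.1%), against 54.9% of all genes tested, so an equal direction often went with an unequal size. At the edge of the rule lay Myo1h, higher in both clones with a larger adjusted p of 0.04999, and Hsd17b10, lower in both with 0.0496. Just outside it lay Rpl35a (0.0502) and Gtpbp4 (0.0502), both lower in the clones.

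**Figure D1:**
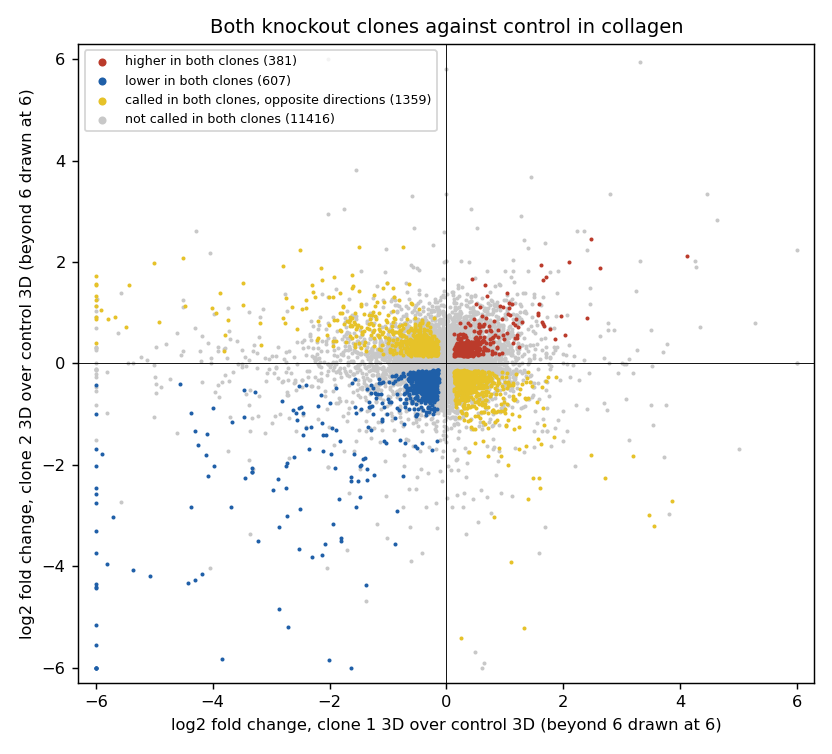
Each point is 1 of 13763 genes, with the log2 fold change of clone 1 over control in 3D on the x axis and that of clone 2 over control on the y axis; values beyond 6 are drawn at 6. The 381 genes called higher in both clones lie at the upper right, the 607 called lower in both at the lower left, and the 1359 called in opposite directions in the other quadrants.

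The shared genes were spread unevenly over the chromosomes. Chromosomes 1, 11 and 16 held 315 of the 607 shared lower genes (51.9%) and 16.9% of the genes tested. On chromosome 1 alone 153 of 784 genes tested were lower in both clones, on chromosome 11 105 of 1128 and on chromosome 16 57 of 418. Among the shared higher genes, 147 of 381 (38.6%) lay on chromosomes 5, 12 and 14, which held 13.5% of the genes tested. The clones did not share these shifts equally. On chromosome 1 the median log2 fold change over all genes was -0.06 in clone 1 and -0.53 in clone 2, while on chromosome 11 it was -0.43 in clone 1 and 0.02 in clone 2. On chromosome 16 the medians were -0.32 in clone 1 and -0.08 in clone 2, and on chromosome 5 they were 0.23 and 0.07. The same chromosomes stood apart on plastic (2D), with medians of -0.10 and -0.29 on chromosome 1 and -0.38 and -0.08 on chromosome 11. Chromosome copy number was not measured, and its part in these shifts was not tested.

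A fit in which the median of every chromosome was set to 0 in each clone was therefore read beside the first. With chromosomes centred, 241 genes (1.75%) were higher and 392 (2.85%) lower in both clones. Of the 381 shared higher genes 160 remained in this set, and of the 607 shared lower genes 279 remained. Another 81 higher and 113 lower genes met the rule only after centring. For each function described below, the genes that remained or did not remain in this fit are given by name or number. For some of them the count without 1 of the 6 libraries is given too. Where it is not given, the count need not be stable. Those of lower chemokine and NF-kB genes and of higher glycolysis and hypoxia genes also moved by over 1.5 times.

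**Figure D2:**
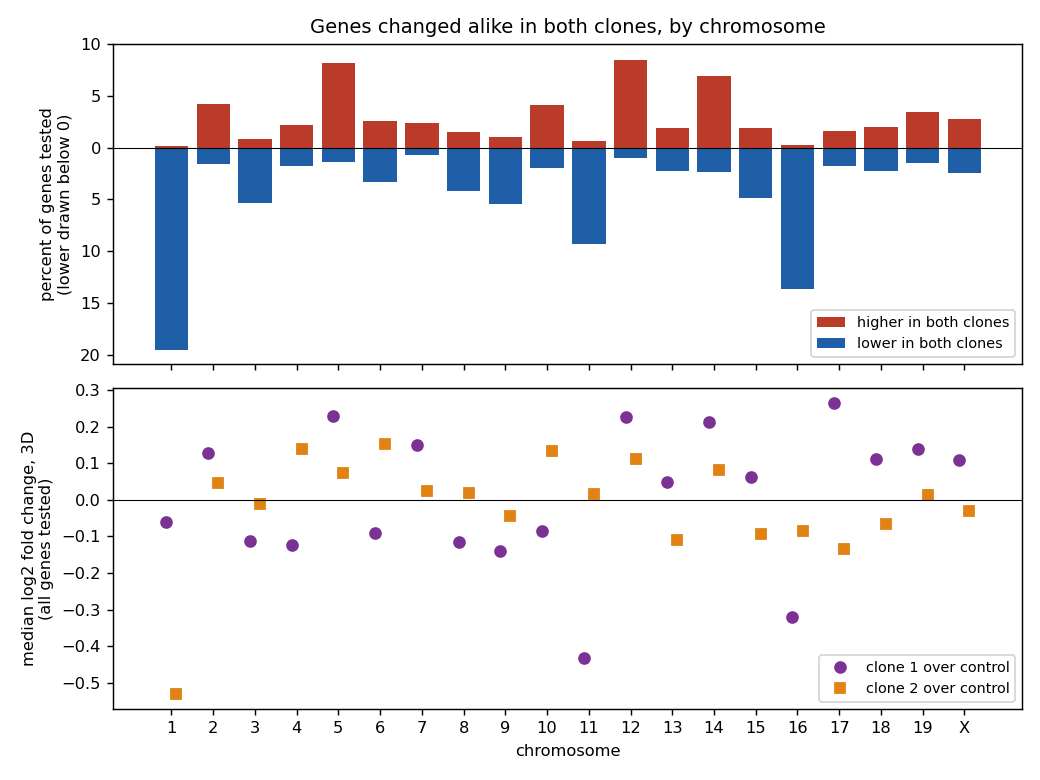
The upper panel shows for each chromosome the percent of genes tested that were higher (above 0) or lower (below 0) in both clones in 3D. The lower panel shows the median log2 fold change of all genes tested there in clone 1 and clone 2; chromosome 1 is low in clone 2 (-0.53), and chromosome 11 in clone 1 (-0.43).

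The 12 shared higher genes with the largest smaller fold change of the 2 clones, among genes with a mean of at least 5 CPM, were Npr2, Cplx2, Slc22a29, Cobl, Mslnl, Sirpa, Sqor, Nrbp2, Cxcl1, Megf6, Ctgf and Pde5a. Npr2 (ENSMUSG00000028469.15, chromosome 4, 43631935 to 43651244) encodes the receptor for C-type natriuretic peptide, which makes cyclic GMP. It stood at 16.6 and 17.6 CPM in clone 1 and 12.4 and 13.1 CPM in clone 2, against 5.54 and 5.803 CPM in control. All 4 knockout libraries were above both control libraries. That held for all 381 shared higher genes, and the reverse for all 607 shared lower genes, so it adds nothing to the call. Over all genes tested, 13.4% lay above and 14.2% below in this way. The log2 fold changes of Npr2 were 1.59 ± 0.15 (standard error, SE) in clone 1 and 1.17 ± 0.16 in clone 2 (larger adjusted p = 2.1e-06). A gene on the opposite strand covers 5.70% of its exon length. Pde5a, which breaks cyclic GMP down, was at 12.9 and 11.5 CPM in clone 1 and 6.33 and 6.46 CPM in clone 2, against 4.01 and 3.62 CPM in control (larger adjusted p = 0.0021, and 0.0501 without control replicate 2).

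Cxcl1, a chemokine that attracts neutrophils (ENSMUSG00000029380.11, chromosome 5, 90891241 to 90893115), was the most abundant of the 12. Its level was 213 and 228 CPM in clone 1 and 174 and 175 CPM in clone 2, against 98.2 and 102 CPM in control, so the groups did not overlap. The log2 fold changes were 1.14 ± 0.05 and 0.80 ± 0.05 (larger adjusted p = 1.1e-11). Ctgf, a matricellular protein and a textbook target of YAP and TEAD, was at 32.0 and 35.0 CPM in clone 1 and 23.5 and 26.7 CPM in clone 2, against 14.99 and 14.7 CPM in control. Its larger adjusted p was 5.3e-07, and a gene on the opposite strand covers 23.2% of its exons. Sirpa, the receptor of CD47 on myeloid cells, differed between the clones, with 30.4 and 29.9 CPM in clone 1 and 15.1 and 14.4 CPM in clone 2, against 7.55 and 7.99 CPM in control. By log2 fold change clone 2 lay between clone 1 and control for this gene, as it did for all of the 12 except Cplx2 and Slc22a29. Cobl, an actin nucleator, averaged 31.8 CPM in clone 1 and 21.3 CPM in clone 2, against 10.7 CPM in control. Cobl rose although it lies on chromosome 11, whose median was low in clone 1. Cplx2, a complexin that binds SNARE proteins, and Slc22a29, a solute carrier, were the members of the 12 with a larger log2 fold change in clone 2 than in clone 1; the clones differed for Slc22a29 (adjusted p = 0.0408) and the test gave 0.544 for Cplx2.

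The 12 lower genes chosen in the same way were Slc39a4, Podnl1, Atp1b1, Akap12, Rbpms, Fam129a, Nlrc5, Rgl1, Lgals9, Krt14, Hsd17b11 and Dock6. Slc39a4, a zinc importer (chromosome 15, 76612383 to 76617384), was near the lower limit of detection in clone 1, with 0.418 and 0.226 CPM. It was at 1.01 and 1.28 CPM in clone 2, against 18.2 and 17.7 CPM in control. Podnl1, a small leucine-rich proteoglycan of the matrix (chromosome 8, 84125989 to 84132527), fell in both clones, to 3.30 and 4.70 CPM in clone 1 and 3.60 and 3.10 CPM in clone 2, against 27.9 and 26.1 CPM in control. The test of clone 2 against clone 1 for Podnl1 gave an adjusted p of 0.217.

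Akap12, a scaffold for protein kinase A, was at 4.94 and 4.38 CPM in clone 1 and 6.92 and 7.81 CPM in clone 2, against 24.4 and 23.2 CPM in control. Rbpms, an RNA-binding protein, was at 8.92 and 9.79 CPM in clone 1 and 5.63 and 5.14 CPM in clone 2, against 27.3 and 26.2 CPM in control. For both genes every knockout library was below both control libraries, but the lower clone differed: clone 1 for Akap12 and clone 2 for Rbpms. Krt14, the keratin of basal mammary cells, was at 16.02 and 14.3 CPM in clone 1 and 7.59 and 7.84 CPM in clone 2, against 34.8 and 36.4 CPM in control. Lgals9, a galectin that binds glycans on immune cells, averaged 2.21 CPM in clone 1 and 4.67 CPM in clone 2, against 11.1 CPM in control. Dock6, an exchange factor for Rac and Cdc42, averaged 1.68 CPM in clone 1 and 4.55 CPM in clone 2, against 9.94 CPM in control. Atp1b1, the beta subunit of the sodium pump, averaged 3.20 CPM in clone 1 and 1.04 CPM in clone 2, against 11.3 CPM in control, with 18.7% of its exon length covered by a gene on the opposite strand. All 24 of these genes kept their shared call with chromosomes centred. Over all 13 alternatives tried for each, 22 of the 24 kept it, and the exceptions were Pde5a and Sqor, each lost without 1 control library.

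**Figure D3:**
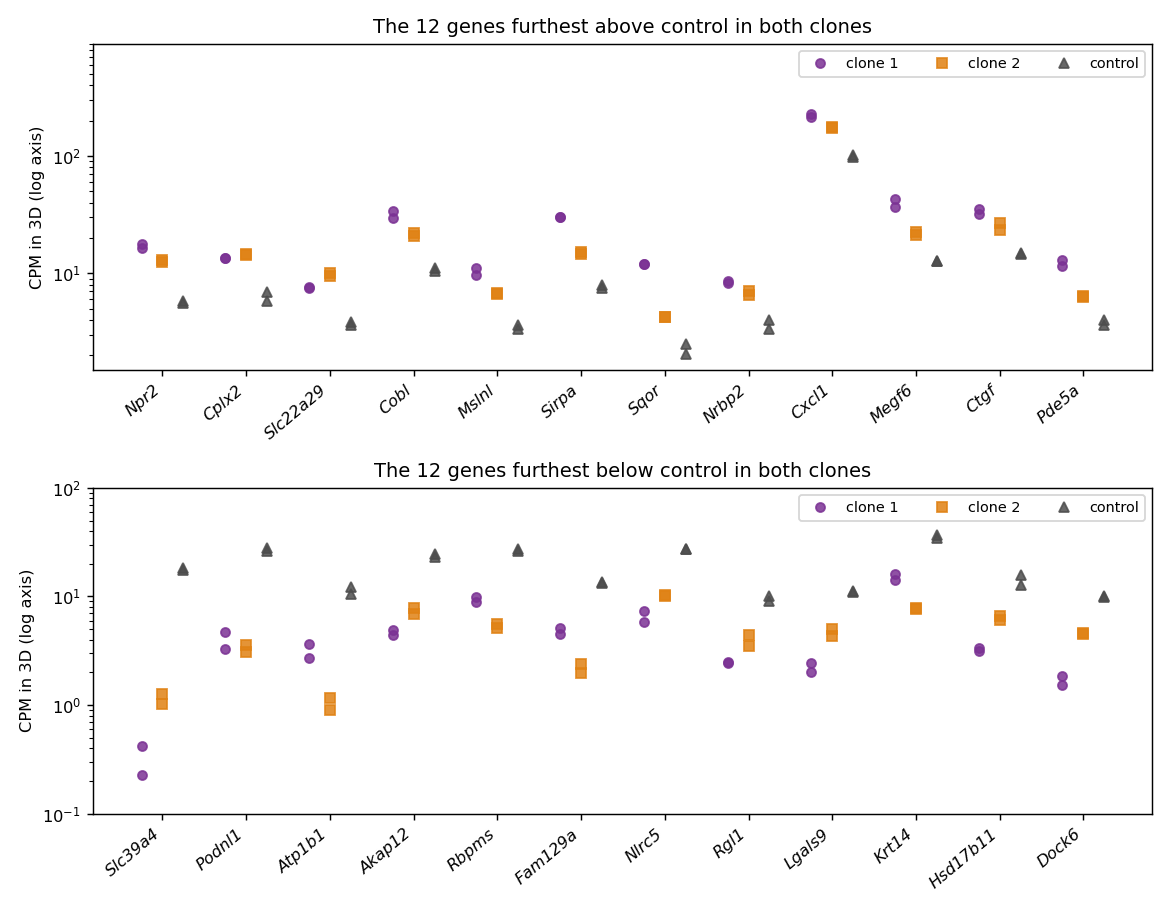
CPM (log axis) of the 12 genes with the largest rise (upper panel) and the 12 with the largest fall (lower panel) in both clones in 3D, with 1 point per library for clone 1, clone 2 and control from left to right. For each gene the 4 knockout libraries lie on the same side of both control libraries, as they do for all 988 shared genes. Slc39a4 shows the largest distance.

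Below these, 3 genes had no count in any of the 4 knockout libraries. The antisense transcript Ptgs2os2 had 64 and 57 counts in the control libraries and was at least 82.7-fold lower against a floor of 3 counts over the knockout libraries. The same floor gave at least 23.2-fold for Akr1c13, which had 18 and 16 control counts, and at least 21.9-fold for Gprin1, with 18 and 14.

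To look at functions beyond single genes, 53 lists of pathways, complexes and gene families were read against the shared calls. They cover 2039 tested genes together with 4 lists of cell type markers, and 80 of these genes were higher and 157 lower in both clones. The background to hold each list against is 2.77% higher and 4.41% lower over all genes.

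Genes of MHC class I antigen presentation were among the shared falls. Class I heavy chains bind peptides from the proteasome and present them on the cell surface with beta-2 microglobulin, and Nlrc5 is the transactivator of their genes. Of 22 genes tested, 5 fell in both clones and none rose, and all 5 remained with chromosomes centred: Nlrc5, B2m, H2-K1, H2-D1 and H2-Q7. Another 4 genes of the list were called in opposite directions, and the list's median log2 fold change was -0.50 in clone 1 and -0.06 in clone 2. Nlrc5 (chromosome 8, 94434356 to 94527272) was at 5.77 and 7.31 CPM in clone 1 and 10.2 and 10.4 CPM in clone 2, against 27.6 and 27.3 CPM in control. B2m, which encodes beta-2 microglobulin, was at 252 and 237 CPM in clone 1 and 265 and 258 CPM in clone 2, against 362 and 335 CPM in control. The fall of Nlrc5 was the larger, with log2 fold changes of -2.06 ± 0.12 and -1.41 ± 0.12, against -0.51 ± 0.05 and -0.41 ± 0.05 for B2m.

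Among the heavy chains, H2-K1 was at 108 and 106 CPM in clone 1 and 125 and 124 CPM in clone 2, against 149 and 158 CPM in control. H2-D1 was at 220 and 228 CPM in clone 1 and 217 and 226 CPM in clone 2, against 278 and 290 CPM in control. H2-Q7, a nonclassical class I gene, was at 0.987 and 0.805 CPM in clone 1 and 2.80 and 3.10 CPM in clone 2, against 6.42 and 4.69 CPM in control. No knockout library reached the control range for any of them, as for all 607 shared lower genes and 14.2% of all genes tested. Class I genes are near-identical to each other, and 4T1 comes from a BALB/c mouse while mm10 is built from another strain, so the split of reads among the H2 genes is uncertain. On plastic 11 of the 22 genes were lower in both clones. Of the wider set of genes for innate sensing, immune checkpoints and ligands, Sirpa, Il4ra and Pvr rose and Lgals9, Casp1, Raet1e, Il1r1 and Socs1 fell, out of 48 tested. After centring Sirpa, Lgals9, Casp1 and Raet1e remained and the other four did not. Without 1 library 1 to 3 rose and 1 to 4 fell, with the lowest counts without control replicate 1, and DESeq2 gave 2 lower genes. The interferon response list had 1 shared gene of 39, Sp100, while 21 were called in opposite directions, lower in one clone and higher in the other. Sp100 lies on chromosome 1 and did not remain after centring.

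The regions before the start of the class I genes are shown because these members moved together and their promoters share known elements. The sequences are RefSeq promoter windows on GRCm38.p6, cut to the 250 bases before the start and read in the direction of the gene. Capitals mark TGACG (part of a cyclic AMP response element), ATTGG (an inverted CCAAT box), GAANNGAA (1 spelling of an interferon response element core) and GGGGATTCC (1 spelling of a kappa B motif), each searched on both strands. Other spellings of these elements were not searched. Lower case, as in B2m for the last 2, therefore does not show that an element is absent.
B2m, chr2:122147437-122147686, plus strand: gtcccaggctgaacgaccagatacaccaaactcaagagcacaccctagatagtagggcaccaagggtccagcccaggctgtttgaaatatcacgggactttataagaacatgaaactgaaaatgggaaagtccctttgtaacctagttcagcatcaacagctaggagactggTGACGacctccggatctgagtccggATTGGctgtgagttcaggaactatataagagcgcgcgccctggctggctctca
H2-K1, chr17:34000348-34000597, minus strand: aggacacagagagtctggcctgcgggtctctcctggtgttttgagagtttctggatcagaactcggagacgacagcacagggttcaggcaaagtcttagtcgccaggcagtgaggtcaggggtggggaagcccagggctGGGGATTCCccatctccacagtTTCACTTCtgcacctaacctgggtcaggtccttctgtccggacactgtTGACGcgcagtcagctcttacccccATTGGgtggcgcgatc
H2-Q7, chr17:35438905-35439154, plus strand: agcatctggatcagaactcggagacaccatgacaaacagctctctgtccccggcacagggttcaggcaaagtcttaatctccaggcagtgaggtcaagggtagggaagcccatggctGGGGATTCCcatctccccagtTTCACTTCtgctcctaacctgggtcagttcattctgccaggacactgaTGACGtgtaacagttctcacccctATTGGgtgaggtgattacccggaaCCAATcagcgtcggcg
In each of them TGACG was followed by ATTGG, with 20 bases between them in B2m and H2-K1 and 19 in H2-Q7. That pair at 19 or 20 bases was present in 28 of the 10142 tested genes with a promoter window (0.276%), and in 5 of the 472 shared lower genes with one, which were B2m, H2-K1, H2-D1, H2-Q7 and Nasp. The spacing was read from these class I windows, so their part in the count is fixed by that choice. The kappa B motif was in 38 windows overall (0.375%) and the interferon core in 1964 (19.4%). A match describes letters in a window and does not show that a factor binds there.

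Genes of matrix proteins changed in both directions. Of 42 tested genes of the extracellular matrix, 6 fell and 3 rose in both clones, and 5 of the 6 remained after centring. Another 13 of the 42 were called in opposite directions in the clones. Podnl1 was described above. Fn1, which encodes fibronectin, the adhesive glycoprotein assembled into fibrils by integrins, was at 821 and 865 CPM in clone 1 and 966 and 928 CPM in clone 2, against 1378 and 1276 CPM in control. Its larger adjusted p was 1.0e-07, but it lies on chromosome 1 and did not pass after centring. Col6a1, a chain of collagen VI, was at 10.3 and 13.2 CPM in clone 1 and 12.3 and 11.5 CPM in clone 2, against 24.9 and 25.6 CPM in control, and remained. Tnc, the anti-adhesive tenascin C, had log2 fold changes of -0.52 ± 0.14 and -1.02 ± 0.15. Spp1, which encodes osteopontin, fell much further in clone 2 than in clone 1, with log2 fold changes of -0.25 ± 0.05 in clone 1 and -1.71 ± 0.06 in clone 2. Fbln1, a fibulin, had counts in control at 1.75 and 1.22 CPM and at most 0.0365 CPM in any knockout library. Megf6, Ltbp2, which binds fibrillin, and Mfge8, which bridges dying cells to phagocytes, rose, and of these Megf6 remained. The list of matrix proteases and their inhibitors had 3 lower genes, the serpins Serpine2, Serpinb5 and Serpinb2, and 1 higher gene, Mmp11, of 38 tested. Another 15 of the 38 were called in opposite directions in the clones. Serpine2 and Serpinb5 remained after centring, and Serpinb2 and Mmp11 did not. The call of Mmp11 was lost when any 1 of the 6 libraries was left out.

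Caveolae and keratins gave smaller groups. Cav1 and Cavin1, which together form the caveolar coat, and Anxa6, a membrane-binding annexin, fell among 25 genes tested, and all 3 remained with chromosomes centred, while the annexin Anxa3 rose and did not remain. Their sizes differed widely between the clones. Cav1 was at 0.570 and 0.451 CPM in clone 1 and 40.6 and 40.1 CPM in clone 2, against 54.7 and 53.7 CPM in control. Cavin1 averaged 159 CPM in clone 1 and 291 CPM in clone 2, against 391 CPM in control. Of 27 genes of desmosomes, cadherins and keratins, Krt14, Krt8, Krt18 and Dsc2 fell and Pkp3, a plakophilin, rose. Krt8 and Krt18, the keratin pair of luminal cells, changed little, with log2 fold changes of -0.27 and -0.23 for Krt8 and -0.26 and -0.17 for Krt18. Krt14 and Krt8 remained after centring, and Krt18, Dsc2 and Pkp3 did not. Without either clone 2 library or control replicate 2 the count of lower genes was 2.

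Of 40 genes of the actin cytoskeleton, 3 rose and 3 fell in both clones. Cobl and Msn, which links actin to the membrane, were among the higher genes and remained after centring. The actin Actg1 and the filamin Flnc fell and remained, while the profilin Pfn1, which fell, was called in opposite directions in the clones after centring. Without control replicate 2 or clone 2 replicate 1 the count of higher genes was 1. Actg1, a cytoplasmic actin, was at 1092 and 1071 CPM in clone 1 and 1175 and 1186 CPM in clone 2, against 1532 and 1681 CPM in control.

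Cyclic nucleotide and G protein signalling had 9 shared genes of 50 tested. Besides Npr2 and Pde5a, Rapgef5, an exchange factor for Rap, rose. The 6 that fell were Akap12, the mitochondrial anchor Akap1, the G protein subunit Gng2, the G protein brake Rgs2, the lysophosphatidic acid receptor Lpar2 and Npr3. After centring Npr2, Pde5a, Akap12, Gng2 and Npr3 remained, and Rapgef5, Akap1, Rgs2 and Lpar2 did not. The count of higher genes was 1 without control replicate 2. Npr3, the clearance receptor for natriuretic peptides, was at 22.7 and 22.6 CPM in clone 1 and 14.9 and 14.5 CPM in clone 2, against 30.2 and 27.3 CPM in control. Npr2 and Npr3, which both bind C-type natriuretic peptide, thus differed from control in opposite directions in both clones.

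Among chemokines and NF-kB targets, Cxcl1, Cxcl5 and Nfkbia rose and Cxcl3 and Cx3cl1 fell, of 32 tested, and all 5 remained after centring. DESeq2 gave 1 lower gene in this list and did not call Cx3cl1. Cxcl5, which shares a receptor with Cxcl1, was at 57.3 and 58.5 CPM in clone 1 and 52.1 and 54.2 CPM in clone 2, against 35.7 and 32.7 CPM in control. Nfkbia, the inhibitor of NF-kB, was at 116 and 117 CPM in clone 1 and 114 and 109 CPM in clone 2, against 85.7 and 89.7 CPM in control. Cx3cl1, a membrane-bound chemokine, was at 62.5 and 64.5 CPM in clone 1 and 70.8 and 72.2 CPM in clone 2, against 94.1 and 97.3 CPM in control. The list therefore held members on both sides, and its median log2 fold change was -0.21 in clone 1 and 0.16 in clone 2. Of 39 immediate early and AP-1 genes, Mafk, Fos, Egr1, Jun and Nr4a1 rose and Egr3 and Atf3 fell, and of these Egr1, Nr4a1, Egr3 and Atf3 remained after centring. The count of higher genes was 1 without control replicate 1 and 2 without clone 2 replicate 2.

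Among glycolysis and hypoxia genes, of 41 tested, 6 fell (Eno2, Car12, Vegfa, Pkm, Gapdh and Pfkp) and 2 rose (Hif1a and Egln1). Centring kept 5 of the 6 lower genes (not Pkm) and Egln1, and added 4 lower genes, Ldha, Pgam1, Eno1 and Tpi1. The count of lower genes was 2 without clone 1 replicate 2 and 3 without control replicate 2. Gapdh, a glycolytic enzyme often used as a reference gene, had log2 fold changes of -0.22 ± 0.05 in clone 1 and -0.15 ± 0.05 in clone 2. Vegfa, an angiogenic growth factor, was at 43.1 and 43.9 CPM in clone 1 and 29.9 and 30.2 CPM in clone 2, against 53.2 and 55.2 CPM in control. On plastic the same list had 15 genes higher and 3 lower in both clones. Zinc and metal transport had 4 genes lower of 36, Slc39a4, Slc39a8, Slc30a1 and Cnnm4, of which Slc39a4 and Slc39a8 remained after centring. DESeq2 gave 2 lower genes in this list. The 1 higher gene, which did not remain, was Slc39a14, another zinc importer, at 139.6 and 145 CPM in clone 1 and 144 and 143 CPM in clone 2, against 119 and 118 CPM in control.

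Notch and lysosome lists held shared rises only. The Notch ligand Jag2 was at 54.4 and 58.0 CPM in clone 1 and 35.4 and 36.4 CPM in clone 2, against 23.7 and 24.9 CPM in control. Neurl1a, a ubiquitin ligase that acts on Notch ligands, and Rbpj, the DNA-binding partner of Notch, completed the 3 of 29. Jag2 and Neurl1a remained after centring, and Rbpj did not; its call was also lost without control replicate 2 and without clone 2 replicate 1. Among 54 lysosome and autophagy genes, Npc2, a cholesterol carrier, the proton pump subunits Atp6v0d1 and Atp6v0a1, and the autophagy genes Ulk1 and Wipi2 rose. Of these 5, Atp6v0d1 and Atp6v0a1 remained after centring, and the count was 2 without either control library.

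Housekeeping lists, which differ in size, held the largest raw counts of shared falls. A count of 6 was also reached by the lists of the extracellular matrix, glycolysis and hypoxia, cyclic nucleotide signalling and DNA repair. The mitochondrial ribosome had 10 lower genes of 54, the proteasome 9 of 36, DNA replication 8 of 57, the aminoacyl-tRNA synthetases 7 of 37, nuclear genes of oxidative phosphorylation 6 of 57, and ribosome biogenesis 6 of 48, and none of these lists had a shared rise. Chromosomes 1, 11 and 16 carried 7 of the 10 mitochondrial ribosome genes, 7 of the 9 proteasome genes, 5 of the 8 replication genes, 3 of the 7 synthetase genes, 5 of the 6 ribosome biogenesis genes and all 6 oxidative phosphorylation genes. After centring 2 mitochondrial ribosome, 2 proteasome, 2 replication, 4 synthetase, 1 oxidative phosphorylation and 2 ribosome biogenesis genes remained. Centring also added 3 lower genes of oxidative phosphorylation, 3 of ribosome biogenesis and 1 of the synthetase list. It added none in the mitochondrial ribosome, the proteasome or DNA replication. The counts without centring rested on single libraries. Without 1 library the mitochondrial ribosome had 3 to 8 lower genes, the proteasome 4 to 7, the synthetases 4 to 6, oxidative phosphorylation 0 to 5 and ribosome biogenesis 1 to 5, each lowest without control replicate 2, though other libraries gave as low a count for the first 3. DNA replication had 7 to 8. Of the 57 replication genes, however, 20 were called in opposite directions in the clones, against 1359 of all 13763 genes tested. The median log2 fold change of the replication list was 0.18 in clone 1 and -0.29 in clone 2. Opposite calls numbered 3 in the mitochondrial ribosome, 6 in the proteasome, 8 in the synthetases, 4 in oxidative phosphorylation and 9 in ribosome biogenesis. DESeq2 called 6 mitochondrial ribosome, 6 proteasome, 3 oxidative phosphorylation and 4 ribosome biogenesis genes. Psmb3, a core subunit of the proteasome, was at 75.3 and 72.4 CPM in clone 1 and 81.7 and 82.3 CPM in clone 2. Its level was 111 and 109 CPM in control, and it remained. Psmd11, a lid subunit, was at 232 and 226 CPM in clone 1 and 240.3 and 241 CPM in clone 2, against 279.5 and 284 CPM in control, and it did not. The aminoacyl-tRNA synthetases that remained included Dars, Kars and Tars2. The mitosis list had 5 lower genes and 36 called in opposite directions of 66, and none of the 5 remained (0 to 5 without 1 library, lowest without control replicate 2). The translation initiation factors with an Eif symbol, a family chosen after its values were seen, had 9 lower genes and no higher gene of 52, and of these Eif3d and Eif3g remained.

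**Figure D4:**
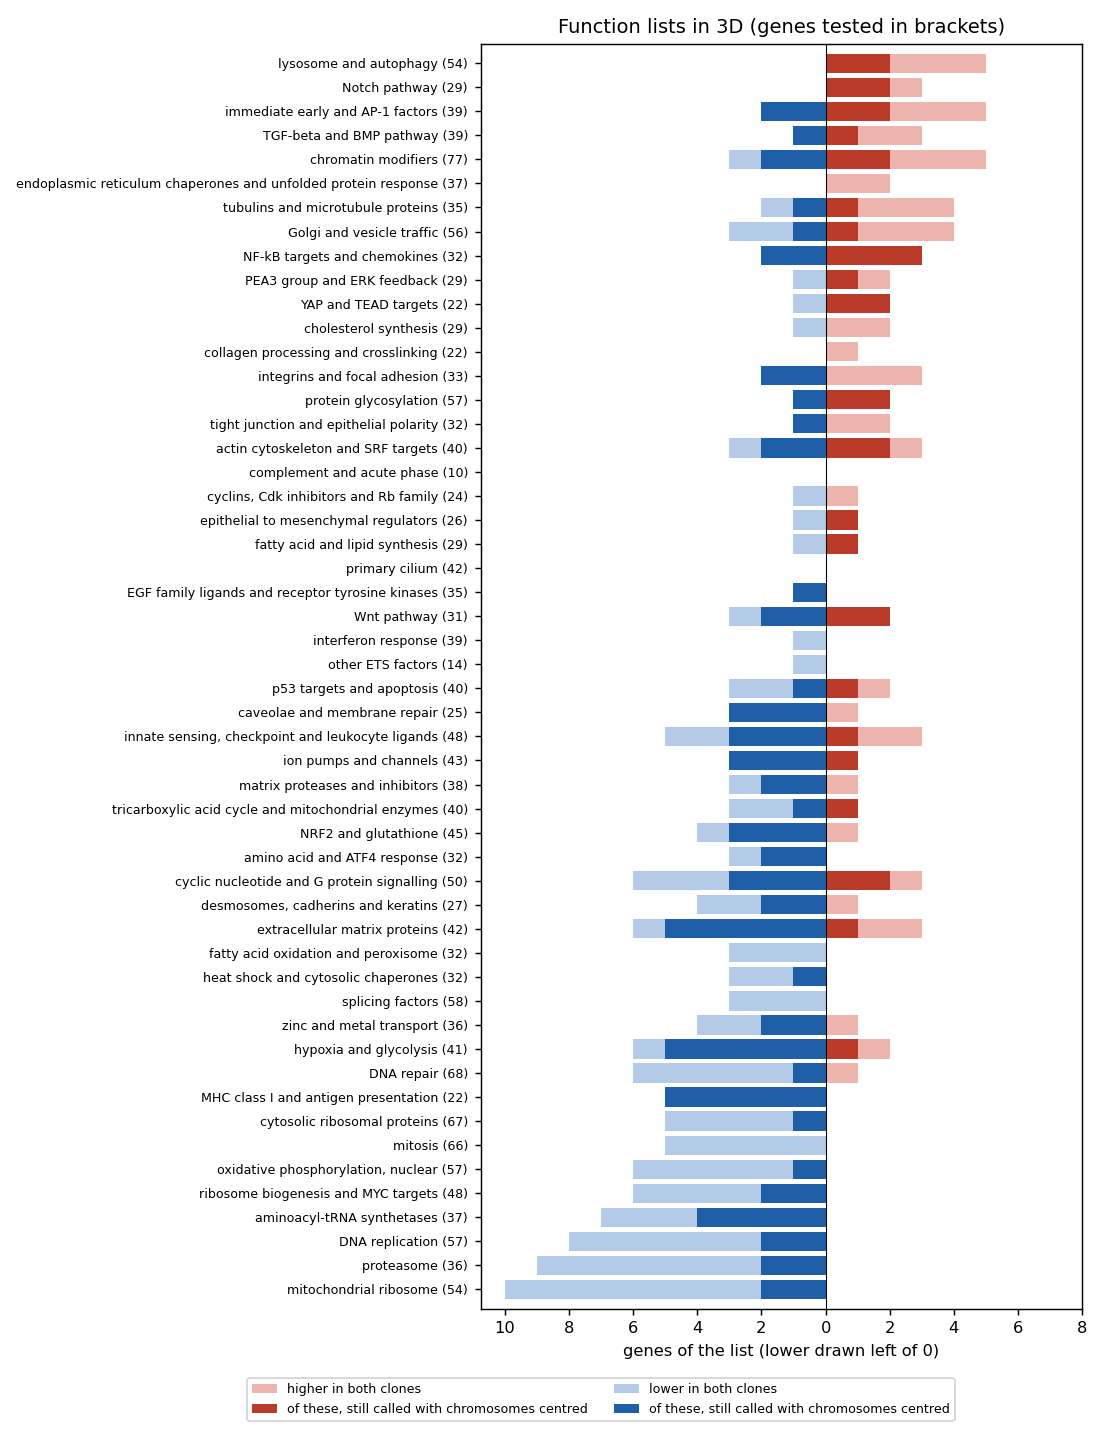
Number of genes in each function list drawn that were higher (right) or lower (left) in both clones in 3D, with the number tested in brackets. Dark bars are the genes still called with chromosomes centred: all 5 lower MHC class I genes are dark, against 2 of the 10 mitochondrial ribosome genes and 2 of the 9 proteasome genes.

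The list of cytosolic ribosomal proteins had 5 lower genes of 67 (Rpl7, Rpl24, Rpl27, Rpl35 and Rps23), of which Rpl35 remained, and 1 to 6 without 1 library, lowest without control replicate 2. Centring added 5 lower genes of this list, Rps10, Rps26, Rps24, Rpl18 and Rpl11, so that 6 were lower in the centred fit. The list is partial: Rpl23a, Rpl36 and Rpl37a, which were also lower in both clones, are not in it. Ribosomal protein genes have processed copies elsewhere in the genome that could share reads, so single members of that family are uncertain.

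The fold changes on plastic were not used to choose the genes and have control libraries of their own, although the 2D libraries entered the shared estimate of spread. Of all genes, 1081 (7.85%) were higher and 939 (6.82%) lower in both clones in 2D. Among the 381 genes higher in both clones in 3D, 163 were also higher in both in 2D, which is 42.8% of the 3D list and 15.1% of the 2D list. Among the 607 lower genes, 277 were also lower in both in 2D, which is 45.6% of the 3D list and 29.5% of the 2D list. The shared higher genes had median log2 fold changes in 2D of 0.38 in clone 1 and 0.27 in clone 2, and the shared lower genes -0.45 and -0.29, against 0.00 and 0.02 for all genes. The chromosome shifts were present in both formats. Without centring 440 of the 988 shared genes were called alike in both clones and both formats. With chromosomes centred 248 were, out of a smaller set of 241 higher and 392 lower genes. Slc39a4, Podnl1, Nlrc5, B2m, H2-K1, H2-D1 and H2-Q7 were lower in both clones in both formats, also after centring in 3D. The 2D libraries held 12.3 to 18.7 M counts, fewer than the 3D libraries, and 463 of the tested genes, 2 of them shared genes, were listed at 0 in all 6.

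Only 4 shared genes were called in both clones in the other direction on plastic. Cxcl5 was higher in 3D, with log2 fold changes of 0.76 and 0.64, and lower in 2D, with -0.32 in clone 1 and -0.85 in clone 2. Man1a, a Golgi mannosidase, was likewise at 0.21 and 0.28 in 3D and at -0.41 and -0.17 in 2D. Acadl, which encodes the long-chain acyl-CoA dehydrogenase of fatty acid oxidation, was at -0.33 and -0.45 in 3D and at 0.41 and 0.31 in 2D. Acadl lies on chromosome 1 and did not remain in 3D after centring, with -0.27 in clone 1 and 0.08 in clone 2. Cxcl5 and Man1a remained. Rpl36 was lower in 3D (-0.14 and -0.13) and higher in 2D (0.31 and 0.13).

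The difference between the formats was also tested directly, as the change from control in collagen minus the change on plastic, for each clone. It uses the 3D libraries that chose the genes, so counts among the shared genes are a description. Over all genes, 73 (0.53%) had a positive and 150 (1.09%) a negative value past the threshold in both clones. Of the shared higher genes Npr2 had a negative value. The 10 shared higher genes with a positive value were Cxcl1, Cxcl5, Ctgf, Psg17, Ppif, Lncpint, Lrp1, Slc39a14, Man1a and Nr4a1. Of the shared lower genes 29 had a negative value, among them Fn1, Tnc, Actg1, Flnc, Cavin1, Dusp10, Pthlh, Gapdh, Pkm and Pfkp, and 3 had a positive value, Neurl3, Slpi and Stab1. Cxcl1 had log2 fold changes in 2D of -0.52 in clone 1 and 0.17 in clone 2, and Fn1 of 0.45 and 0.10, so neither was called alike in both clones on plastic. Format, collagenase treatment and count table changed together, so they cannot be told apart here. The differences between formats were not centred by chromosome, and Fn1 and Dusp10 lie on chromosome 1.

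**Figure D5:**
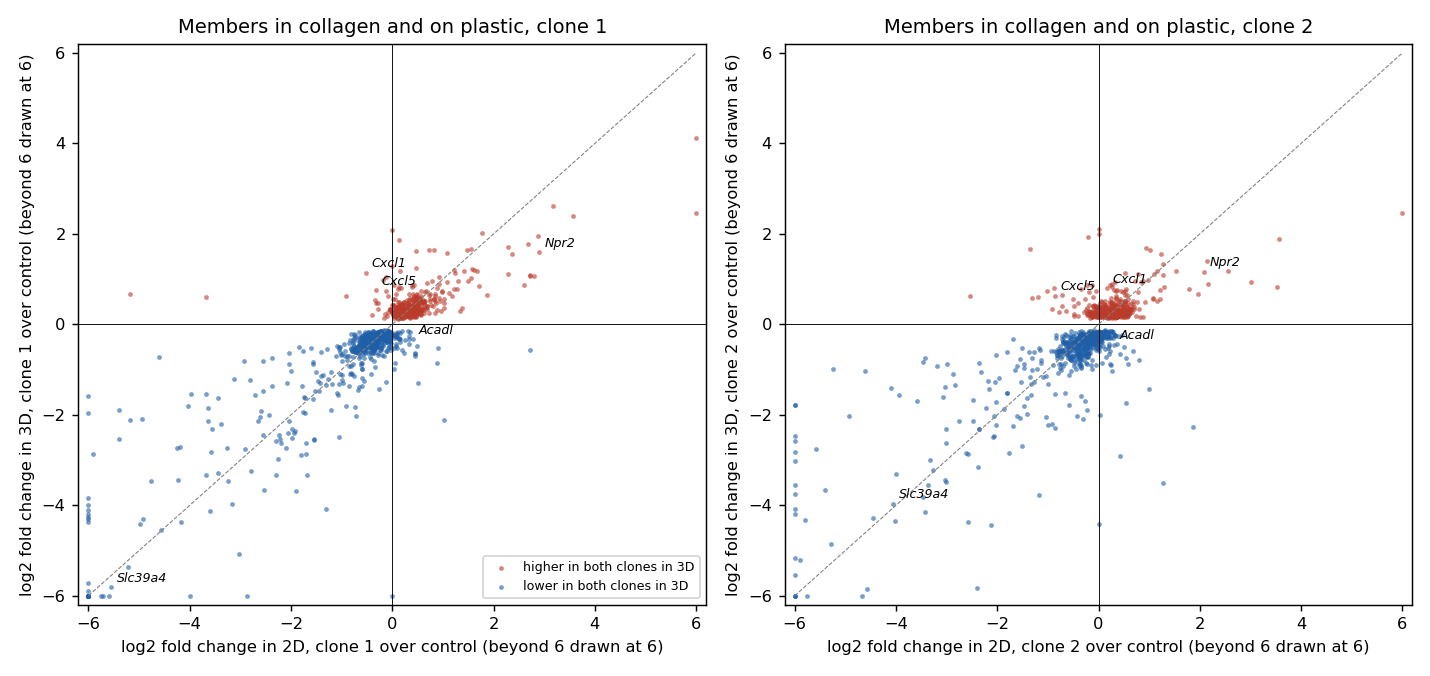
Log2 fold change over control in 2D (x axis) and 3D (y axis) of the 988 shared genes, for clone 1 (left) and clone 2 (right); values beyond 6 are drawn at 6 and the dashed line marks equal values. Cxcl5 and Acadl lie in the quadrants of opposite sign in both clones, while Slc39a4 and Npr2 keep their side. Values are not centred by chromosome.

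Shared genes were more abundant and longer than the rest. The median level was 66.8 CPM for the higher and 37.9 CPM for the lower genes, against 21.6 CPM for all genes tested, and the median exon length was 6501, 4390 and 4134 bases. Abundant and long genes give more counts and so pass a threshold with smaller changes; how far this sets these medians was not tested. Protein-coding genes made up 365 of 380 placed higher genes and 600 of 605 placed lower genes, against 89.9% of all placed genes.

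The ETS motif was counted before the start of the shared genes, because ETS factors bind it. The letters CCGGAAGT, on either strand, were in the windows of 18 of 301 higher genes (5.98%) and 44 of 472 lower genes (9.32%), against 9.13% of all 10142 genes with a window. The shorter CGGAAG, which CCGGAAGT contains, was in 84 higher genes (27.9%) and 172 lower genes (36.4%), against 34.7% of all. With chromosomes centred, CCGGAAGT was in 7 of 188 higher genes (3.72%) and 20 of 309 lower genes (6.47%), and CGGAAG in 22.9% and 30.4%. Among the 24 genes named above for their size of change, 3 are shown with this shorter motif (capitals) and the bases around it.
Npr2, chr4:43631685-43631727, plus strand: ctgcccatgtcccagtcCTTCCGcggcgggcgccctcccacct
Pde5a, chr3:122728952-122728997, plus strand: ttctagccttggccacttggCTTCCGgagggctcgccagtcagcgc
Hsd17b11, chr5:104021852-104021897, minus strand: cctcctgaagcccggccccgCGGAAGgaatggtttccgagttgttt
The match began 233 bases before the RefSeq start in Npr2, 186 in Pde5a and 81 in Hsd17b11, and it lay on the other strand in Npr2 and Pde5a. Npr2 and Pde5a rose and Hsd17b11 fell, to 3.15 and 3.38 CPM in clone 1 and 6.61 and 6.09 CPM in clone 2, against 15.8 and 12.9 CPM in control.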

How the data were processed

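The authors deposited whole-number counts of reads for 31017 gene symbols, with the 2D and the 3D libraries in separate tables. The submitters' processing notes name STAR 2.7.9a, featureCounts, the build mm10, Cell Ranger 3.0.0, FastQC 0.11.9 and R 4.1.1; the role of each and the strand setting are not given in the sources used here, so overlapping genes are treated as uncertain. After a join on symbols, edgeR 4.0.16 (R 4.3.3, with limma 3.58.1) applied filterByExpr to drop low genes and TMM to scale the libraries. The mean of each of the 6 groups was fitted by the quasi-likelihood method to all 12 libraries, with 6 residual degrees of freedom. CPM are counts scaled to the effective library size. The fits were tested on simulated data. DESeq2 1.42.0 was an alternative. GENCODE M21 on mm10 placed 13709 of the 13763 genes tested (99.6%), 74 of them through RefSeq synonyms. RefSeq promoter windows (GRCm38.p6, 250 bases before to 50 after a start) were matched by symbol to 10142 of the tested genes (73.7%). In the centred fit the median log ratio of each chromosome to the control of the same format was set to 0.

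The members and lists were chosen with earlier results of these data known. Genes named are Etv4, Etv1 and Etv5; the 12 shared genes each way with the largest smaller absolute log2 fold change of the 2 clones, at a mean of at least 5 CPM and with a symbol that is not a clone or predicted-gene name; up to 4 shared genes of each list with the smallest larger adjusted p; and 2 genes on each side of the threshold. Other genes named, and the motifs searched before class I genes, were chosen after their values were seen. Alternatives were another normalization, another test, no filter, each format alone, removal of abundant predicted genes, centring, a replicate block, stricter thresholds, genes without overlap, and leaving out each 3D library. Some genes and 1 list are not reported here.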

Additional observations from a re-analysis of the deposited data

Results flagged for a closer look

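Among the 185 genes named by the rule, 18 had a knockout difference that itself differed between the formats in the same direction in both clones (edgeR's quasi-likelihood test, adjusted over all genes). Over all genes tested, 0.53% had a positive and 1.09% a negative value in both clones. Most of the named genes were chosen by their 3D differences, which enter these values, so the count of 18 is a description. The values below are the mean over the clones of the difference in 3D minus that in 2D. A value above 0 means a more positive knockout difference in collagen. It was 1.15 on the log2 scale for Cxcl1, 1.28 for Cxcl5, 0.73 for Ctgf, 0.54 for Man1a and 0.40 for Slc39a14. It was -1.11 for Npr2, which was higher in both clones in both formats, by more on plastic. Among genes of the matrix, the cytoskeleton and caveolae it was -0.85 for Fn1, -0.49 for Actg1, -0.47 for Flnc and -0.33 for Cavin1. Among metabolic enzymes it was -0.75 for Acadl, -0.40 for Idh1, -0.34 for Pkm and -0.32 for Hadh. It was -0.58 for the phosphatase Dusp10, -0.52 for the proteasome subunit Psmd11, -0.33 for Rpl35 and -0.42 for Etv1, which is not a shared gene. These values were not centred by chromosome. Fn1, Acadl, Idh1 and Dusp10 lie on chromosome 1, whose median in clone 2 was -0.53 in 3D and -0.29 in 2D. With chromosomes centred these genes, Pkm, Hadh, Psmd11 and Slc39a14 lost their shared call in 3D. Cxcl1, Cxcl5, Ctgf, Man1a, Npr2, Actg1, Flnc, Cavin1 and Rpl35 kept it. How far the chromosome shifts enter the format differences was not tested.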

How the results depend on the processing

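The counts of genes higher and lower in both clones in 3D, and of those called alike in 2D, were 381, 607 and 440. They became 827 and 1157 with each format fitted alone, 241, 392 and 248 with chromosomes centred, 182, 383 and 289 at an adjusted p under 0.01, 44, 150 and 114 at a 1.5-fold change in both clones, and 234 and 281 (higher and 2D) among genes without exon overlap. Leaving out 1 of the 6 libraries in 3D gave 153 to 310 higher, 368 to 505 lower and 257 to 335 alike in 2D, with the lowest counts without control replicate 2 for all 3. The count of higher genes moved by over 1.5 times without either control library (170 and 153) or either clone 2 library (190 and 187), and that of lower genes without either control library (388 and 368), clone 1 replicate 2 (385) or clone 2 replicate 1 (400). DESeq2's Wald test gave 368 and 412. Deviations of same-numbered libraries in 3D correlated at -0.001, -0.008 and, for clone 2 with control, 0.171. Gm26917 and Gm42418 took a larger share of counts in replicate 2 than in replicate 1 in each 3D group. With a replicate block the counts were 372, 589 and 419. The mean log2 fold change changed sign for Birc5 (8.7e-04), Clk1 (0.016), Srsf2 (0.018) and Etv1 (-0.079), in each case with chromosomes centred. That fit sets the median of each chromosome to 0 in each clone. What lies behind the chromosome shifts was not tested. Of 180 shared genes named by the rule, 67 kept the call under all 13 alternatives. Counts of the lists under all these alternatives were added after seeing the data. With 2 libraries per group, shared changes near the threshold depend on single libraries.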
